A study of Rattus norvegicus with 32 samples.

Results

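The comparison described here is the difference between 2 neurogenic regions of the rat brain in their response to methamphetamine (METH): the METH effect in the dentate gyrus (DG) minus the METH effect in the subventricular zone (SVZ). It used the 16 DG and SVZ libraries of the 32 RNA-seq libraries in the series, 4 in each of the groups DG Sal, DG METH, SVZ Sal and SVZ METH. Genes were members if they lay on exactly 1 of the 20 autosomes, which held for 27159 of 28914 gene names, and 15271 of them had enough reads to be tested. All animals were adult male Sprague-Dawley rats, an outbred strain, without genetic modification. METH groups received 4 intraperitoneal injections of 10 mg/kg at intervals of 2 h, Sal groups received saline on the same schedule, and the rats were killed 24 h after the final dose. SVZ tissue was punched from frozen slices and DG tissue was scooped from the hippocampus, so neighbouring tissue could be carried along. In such bulk samples, fewer cells of a type and less RNA per cell cannot be told apart.

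METH is a psychostimulant that releases dopamine and other monoamines and, in repeated high doses, damages dopaminergic terminals. The DG holds the granule neurons of the hippocampus and a thin germinal layer, the subgranular zone, which adds new granule neurons through adult life. The SVZ lines the lateral ventricle beside the striatum, and its stem cells give rise to neuroblasts that migrate to the olfactory bulb. Ependymal cells and the choroid plexus, which makes cerebrospinal fluid, adjoin it.

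No autosomal gene passed the test for a different METH effect in the 2 regions. A gene was called when its Benjamini-Hochberg adjusted p (FDR) from edgeR's quasi-likelihood test was under 0.01 and its fold above 1.5, and 0 of 15271 genes were called, a background of 0%. The lowest adjusted p was 0.0638. At an unadjusted p under 0.05, the difference was positive (DG effect above SVZ effect) for 571 genes, 3.74% of those tested, and negative for 597 genes, 3.91%. The median difference over all genes was -0.03 on the log2 scale and the median standard error (SE) was 0.32. For the median gene, the 95% confidence interval of the difference therefore reached 0.68 log2 units to either side. This is the precision of 1 estimate and not a limit of detection, and larger differences could also go uncalled under the FDR rule. DESeq2 called 18 genes on the same 16 libraries. With 1, 2 or 4 factors of unwanted variation estimated from the residuals (the RUVr approach), edgeR called 1, 29 and 145 genes.

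The 2 terms of the difference were also counted one by one. In DG alone, 0 genes were called by edgeR and 108 by DESeq2, 9 had an adjusted p under 0.05 by edgeR, and 1810 genes, 11.9%, had an unadjusted p under 0.05. In SVZ alone, 0 genes were called by either tool, the lowest adjusted p by edgeR was 0.960, and 483 genes, 3.16%, had an unadjusted p under 0.05. The METH and Sal libraries did not overlap in CPM, the read count scaled to library size, for 1097 genes in DG, 7.18%, and for 244 genes in SVZ, 1.6%. Of the 571 genes with a positive difference, 512 had a positive effect in DG and a negative one in SVZ, and the DG term was the larger for 438. Of the 597 genes with a negative difference, 520 had the opposite pair of signs, and the DG term was the larger for 510. Over all 15271 genes, the DG term was the larger for 8425, and the signs were opposite for 3434 with the positive effect in DG and 4149 with the positive effect in SVZ. Choosing genes by the difference in large part fixes these counts, and nothing is read from them.

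Several facts about the libraries stand before the gene results. Total counts per library ran from 11600333 to 20222158 reads in DG and from 17269245 to 21869773 reads in SVZ. The 2 regions shared no sequencing run as named in the file headers, so region and run cannot be told apart. Within DG, 1 run held both treatments (DG Sal 3 with DG METH 1 and 2). DG Sal 1, 2 and 4 were in a run without DG METH, and DG METH 3 and 4 in a run without DG Sal. Treatment in DG thus lay largely along run, and the 2 cannot be fully told apart. The headers also carry a library number. The 4 DG libraries with replicate numbers 1 and 2 carry the numbers 20 and 21 under Sal and 14 and 15 under METH, while the nucleus accumbens (NAc) and Cornu Ammonis (CA) libraries label 14 and 15 as Sal and 20 and 21 as METH.

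Usp9y, a gene of the Y chromosome whose reads were either near 0 or clearly present, was compared across regions as a check of the labels. The libraries numbered 20, 21 and 23 had 0 or 1 read in NAc, CA and DG alike, and those numbered 15, 22, 24 and 25 had 8 to 87 reads. DG libraries matched the NAc and CA libraries of their own number in 7 of 8 cases, the exception being DG METH 1, with 9 reads against 0 and 1. An unnamed gene model, AABR07044362.6, was present or absent by number in the same manner in 8 of 8 DG libraries. A match by number is not a match by treatment. For the 4 DG libraries with replicate numbers 1 and 2, the NAc and CA libraries of the same number carry the other treatment label. The labels were used as given, and whether they are right was not settled. Results are therefore also given without DG replicates 1 and 2. In SVZ, Usp9y had 50, 43, 24 and 21 reads in the 4 Sal libraries and 1, 0, 0 and 0 in the 4 METH libraries. By treatment in DG, it had 0, 0, 18 and 0 reads under Sal and 9, 11, 9 and 32 under METH. Its presence thus went with Sal in SVZ and mostly with METH in DG, and the part of this in the METH effect difference was not tested. The SVZ METH libraries carry only 2 library numbers, each on 2 libraries. Where nothing shows that libraries came from separate animals, p-values measure only the spread between these libraries.

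Marker genes of neighbouring tissue differed strongly between libraries of 1 group. The 24 listed genes of striatal medium spiny neurons summed to 4682 CPM in DG Sal 3 and to between 846 and 1193 CPM in the other 7 DG libraries. Neurod1, a transcription factor of granule neurons, was at 0.259 CPM in DG Sal 3 and at 14.9 to 69.2 CPM in those 7. Prox1 did not set this library apart, at 30.1 CPM against 26.6 CPM in DG Sal 2. Nor did the whole granule list, at 499 CPM against 516 CPM in DG Sal 2. Other lists did set it apart. CA pyramidal genes summed to 792 CPM in DG Sal 3, against at least 1427.8 CPM in the other 7 DG libraries. Presynaptic genes summed to 6065 CPM there against at least 8959.5 CPM, and interneuron genes to 2456 CPM against at most 1432.4 CPM. In SVZ, the same striatal sum was 1235, 7503, 12904 and 8768 CPM in the Sal libraries and 4004.5, 976, 6294 and 2099 CPM in the METH libraries. Listed genes of thalamic neurons summed to 2869.8 CPM in SVZ Sal 1, 2592 CPM in SVZ METH 2 and 1695 CPM in SVZ METH 4, against 135 to 712 CPM in the other 5 SVZ libraries. Drd1, the D1 dopamine receptor of the striatum, was at 20.2 to 37.3 CPM in those 3 libraries and at 84.1 to 229 CPM in the other 5. The choroid plexus list summed to 2804 CPM in DG Sal 4, 7186.5 CPM in DG METH 3 and 9254 CPM in SVZ METH 3, and to at most 490.1 CPM elsewhere. The part of these shifts in the results below was not tested, and the gene values are given with and without the libraries concerned.

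**Figure D1:**
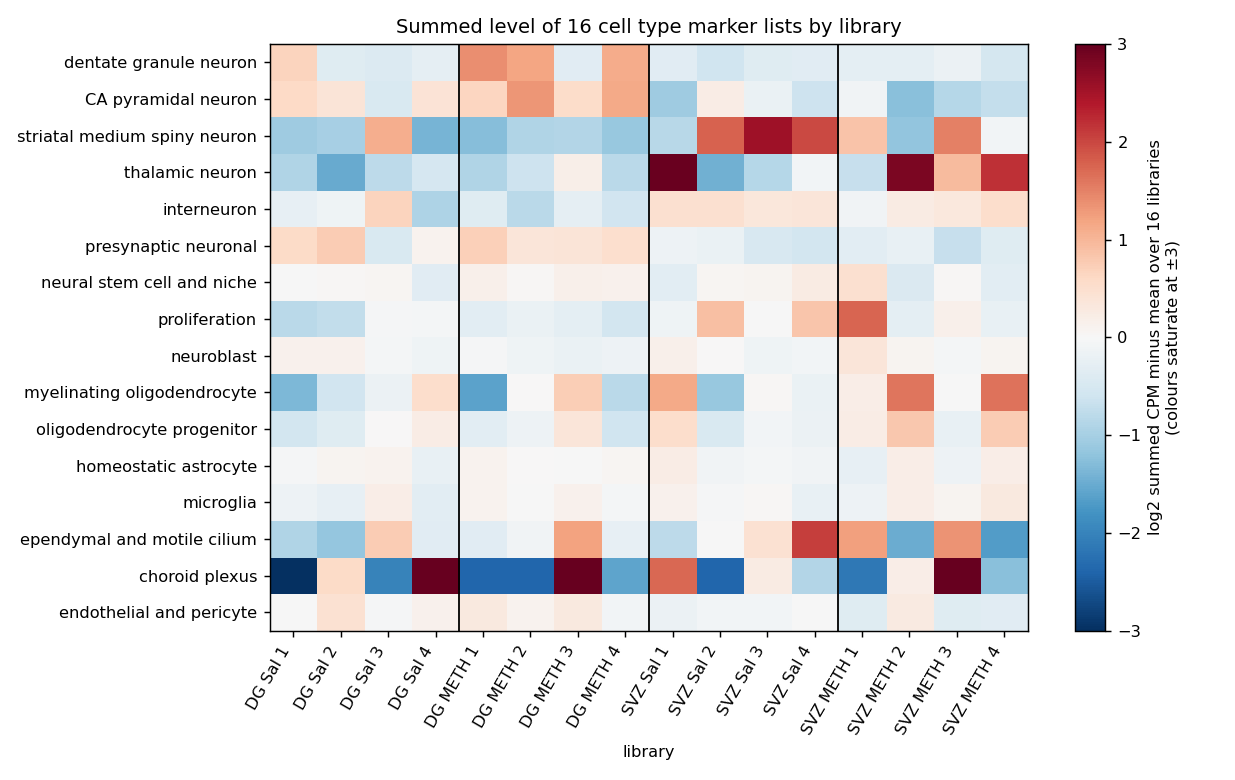
Each cell is the log2 summed CPM of 1 of 16 cell type marker lists (rows) in 1 of the 16 libraries (columns), minus that list's mean over the libraries. Striatal genes were high in DG Sal 3, thalamic genes in SVZ Sal 1, SVZ METH 2 and SVZ METH 4, and choroid plexus genes in DG Sal 4, DG METH 3 and SVZ METH 3.

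The genes described next are the 12 with the lowest p for a positive difference and the 12 with the lowest p for a negative one, chosen by these values, so that what follows describes them and supports no test of them as a set. Their adjusted p ran from 0.0638 to 0.334 for the positive and from 0.276 to 0.350 for the negative genes. DG METH and DG Sal libraries did not overlap for 11 of the 12 positive and 12 of the 12 negative genes, beside the 7.18% of all genes, and SVZ METH and SVZ Sal libraries did not overlap for 1 and 3 of them, beside 1.6%. Coordinates below are those of the rn6 build in the count files, from the first to the last exon of the gene.

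Signalling and synaptic genes stood among the positive differences. Arhgef25 (chr7:70469312-70476340), a guanine nucleotide exchange factor for small GTPases, had 62.7, 61.6, 62.4 and 51.8 CPM in DG Sal and 131, 144, 109 and 166 CPM in DG METH. In SVZ it had 40.6, 70.2, 72.8 and 54.6 CPM under Sal and 39.7, 33.3, 47 and 34.5 CPM under METH. The DG groups did not overlap, with METH the higher, while the SVZ groups overlapped through SVZ Sal 1. On the log2 scale, the METH effect was 1.20 ± 0.18 (SE) in DG and -0.63 ± 0.18 in SVZ, and their difference was 1.83 ± 0.26, the smallest p of all genes (adjusted p = 0.0638, edgeR).

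Camk1d (chr17:76532611-76938956), a calcium/calmodulin-dependent protein kinase, had 133, 137, 112 and 102 CPM in DG Sal against 199.5, 244, 190.0 and 237 CPM in DG METH. Its SVZ levels were 93.5, 151, 128 and 134 CPM under Sal and 102, 84, 74.7 and 85.4 CPM under METH. The DG groups were again apart and the SVZ groups overlapped through SVZ Sal 1 and SVZ METH 1. The effects were 0.85 ± 0.15 in DG and -0.55 ± 0.15 in SVZ, a difference of 1.40 ± 0.22 (adjusted p = 0.0992). Camk2b (chr14:86208901-86297652), the beta subunit of the kinase CaMKII, which acts at excitatory synapses, had 986, 866, 761 and 667 CPM in DG Sal and 1406, 1644, 927 and 1678 CPM in DG METH. It had 646, 999, 1196 and 957 CPM in SVZ Sal and 626, 545, 765 and 495 CPM in SVZ METH. Its DG groups overlapped through DG METH 3, and its difference was 1.43 ± 0.32 (adjusted p = 0.334).

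Zfp189 (chr5:64789456-64800810), a zinc finger transcription factor, had 30.8, 19.8, 20.3 and 16.6 CPM in DG Sal and 67.4, 57.2, 41.1 and 65.8 CPM in DG METH. Its SVZ levels were 17.6, 35.7, 32.1 and 23 CPM under Sal and 18.7, 15.8, 21 and 20.4 CPM under METH. All DG METH libraries exceeded all DG Sal libraries, and the difference was 1.92 ± 0.33 (adjusted p = 0.182). Klhl26 (chr16:20704807-20729882), a member of the kelch-like family, had 65, 51.5, 53.9 and 49.2 CPM in DG Sal and 112, 93.6, 82.7 and 97.5 CPM in DG METH. Its 8 SVZ libraries lay between 40.8 and 47 CPM whatever the treatment. The DG effect was 0.81 ± 0.11 and the SVZ effect -0.01 ± 0.11, a difference of 0.83 ± 0.15 (adjusted p = 0.229).

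Homer3 (chr16:20881518-20890949) encodes a scaffold of the postsynaptic density and lies close to Klhl26 on the same chromosome. It had 16.1, 12.8, 10.2 and 16.5 CPM in DG Sal and 48.3, 30.1, 53.4 and 53.9 CPM in DG METH. It had 17.4, 10.3, 10.4 and 11.7 CPM in SVZ Sal and 14.8, 16.6, 12.9 and 15 CPM in SVZ METH, and the difference was 1.49 ± 0.31 (adjusted p = 0.334). It was the 1 positive gene of the 12 whose SVZ effect was not negative, at 0.25 ± 0.22. Other positive genes had the same adjusted p. Wipf3, an actin regulator, differed by 2.13 ± 0.47 and Sipa1l3, a Rap GTPase-activating protein, by 1.58 ± 0.34. The splicing factor Cdc40 differed by 1.45 ± 0.31, Nt5dc3 by 1.43 ± 0.31, and Dgka, a diacylglycerol kinase, by 1.03 ± 0.21.

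**Figure D2:**
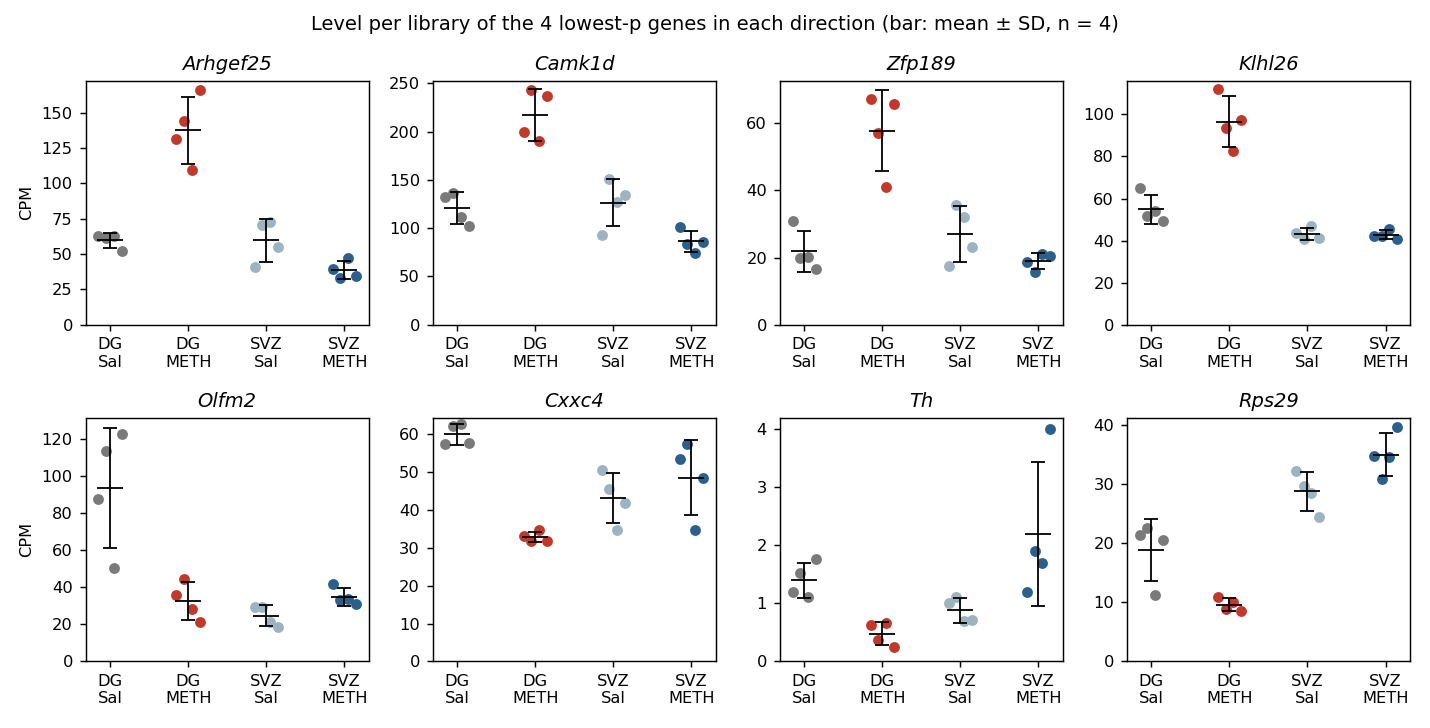
Points are CPM in each library of the 4 lowest-p genes with a positive difference (top) and with a negative difference (bottom), with the mean and SD (n = 4) of each group in black. DG METH was above DG Sal without overlap in the top row and below it without overlap in the bottom row, while SVZ groups overlapped except for Olfm2 and Th.

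Among the negative differences, Olfm2 (chr8:21681266-21743338), a secreted olfactomedin-domain protein of the nervous system, had 87.7, 113, 50.2 and 123 CPM in DG Sal and 36, 44.6, 28.3 and 21.3 CPM in DG METH. In SVZ it had 29.5, 29.4, 21.1 and 18.4 CPM under Sal and 41.8, 32.9, 33.7 and 31 CPM under METH. Neither pair of groups overlapped, and they stood in opposite order in the 2 regions. The effects were -1.52 ± 0.28 in DG and 0.50 ± 0.27 in SVZ, and the difference was -2.02 ± 0.39 (adjusted p = 0.276).

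Th (chr1:216073031-216080287), tyrosine hydroxylase, makes the dopamine precursor and is carried by catecholamine neurons. It had 1.19, 1.51, 1.10 and 1.76 CPM in DG Sal and 0.626, 0.366, 0.668 and 0.255 CPM in DG METH. In SVZ it had 1.01, 1.11, 0.686 and 0.704 CPM under Sal and 1.19, 1.89, 1.69 and 4.0 CPM under METH. The groups were apart in both regions and in opposite order, with a difference of -2.82 ± 0.56 (adjusted p = 0.316). One read was worth 0.0468 to 0.0888 CPM, so these levels rest on few reads, and without SVZ METH 4 the difference was -2.35.

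Cxxc4 (chr2:239415046-239439568), an inhibitor of Wnt signalling, had 57.4, 62.3, 62.7 and 57.8 CPM in DG Sal and 33.2, 32, 34.8 and 31.7 CPM in DG METH. It had 50.7, 45.6, 34.7 and 41.9 CPM in SVZ Sal and 53.6, 57.6, 34.7 and 48.5 CPM in SVZ METH. The 2 DG groups had a small spread and were far apart, and the difference was -1.04 ± 0.20 (adjusted p = 0.276). Slc8a3 (chr6:104891376-105097054), a sodium/calcium exchanger, had 37.6, 27, 59.7 and 37.6 CPM in DG Sal and 12.8, 15.7, 19.8 and 12.9 CPM in DG METH, and 39.2 to 54.1 CPM in the 8 SVZ libraries. Its difference was -1.41 ± 0.30 (adjusted p = 0.334). Efna5, an ephrin ligand for axon guidance, differed by -2.23 ± 0.52, and Rassf5, a Ras effector, by -1.85 ± 0.43 (both adjusted p = 0.350).

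Genes of the ribosome and of RNA processing made up part of the negative genes. Rps29 (chr13:91334004-91334306), a protein of the small ribosomal subunit, had 21.4, 22.6, 11.2 and 20.6 CPM in DG Sal and 11, 8.87, 10.1 and 8.62 CPM in DG METH. It had 32.3, 29.8, 28.6 and 24.5 CPM in SVZ Sal and 34.8, 31, 34.6 and 39.7 CPM in SVZ METH. DG Sal 3, the DG Sal library that shared a run with DG METH libraries, nearly reached the DG METH libraries. The difference was -1.25 ± 0.26 (adjusted p = 0.334). Rps21, of the same subunit, differed by -0.60 ± 0.14. Ribosomal protein genes have many near-identical processed copies, among which the counting could have split reads, so their values are uncertain. Hypk, which binds the ribosome-associated N-terminal acetyltransferase complex, differed by -1.25 ± 0.28, the splicing-associated Pnn by -0.60 ± 0.13, and Cchcr1 by -1.10 ± 0.26.

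**Figure D3:**
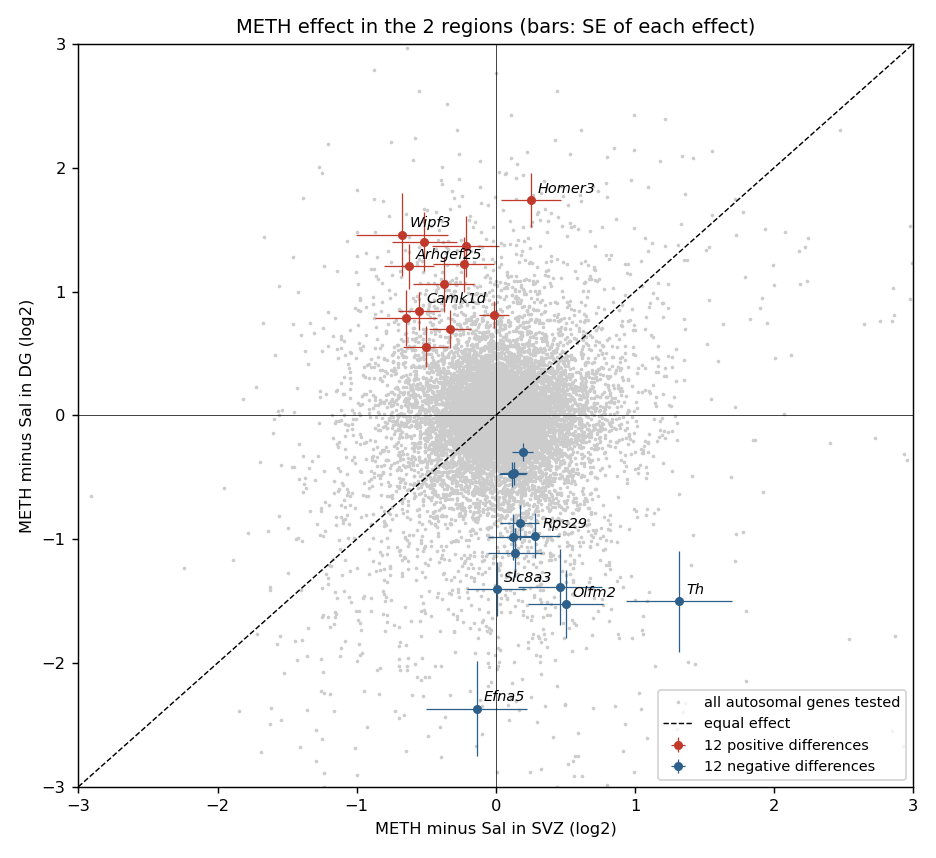
Each grey point is 1 tested gene, with the METH effect in SVZ on the x axis and in DG on the y axis (both log2, METH minus Sal). The 12 positive (red) and 12 negative (blue) genes carry SE bars on both axes and lie away from the dashed line of equal effects, as their choice by the difference requires. Axes cover -3 to 3, and 80 genes lie outside.

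The named values were recomputed without the libraries in doubt. Without SVZ Sal 1, SVZ METH 2 and SVZ METH 4, the difference of Arhgef25 was 1.82 ± 0.24, that of Camk1d 1.5 ± 0.23, that of Olfm2 -2.23 ± 0.47 and that of Th -2.27 ± 0.55. Without DG replicates 1 and 2 of both treatments, they were 1.90 ± 0.37, 1.55 ± 0.28, -2.30 ± 0.46 and -2.90 ± 0.78. In neither case was any gene called, and 1153 and 1130 genes had an unadjusted p under 0.05. Without DG replicates 1 and 2, DG Sal 3 and 4 stood against DG METH 3 and 4, and no run held both treatments. The part of run in those values was not tested. Without DG Sal 3 alone, Rps29 and Hypk were called, at -1.44 and -1.45. Once that library was left out, no run held both treatments in DG, and the part of run in these calls was not tested. Without SVZ Sal 1 alone, Arhgef25 was called, at 1.98, and the number of genes at an unadjusted p under 0.05 was 2276, with 6.5% of all genes positive and 8.22% negative. List counts given below with all libraries stand beside 3.74% positive and 3.91% negative of all genes, and those without SVZ Sal 1 beside these raised shares.

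The summed granule neuron markers were higher in 3 of the 4 DG METH libraries than in any DG Sal library. The 13 tested genes of that list summed to 1054, 516, 499 and 554 CPM in DG Sal and to 1735, 1498.5, 523 and 1427 CPM in DG METH. Single markers did not all follow the sum, with Calb1 at 16.2 to 139 CPM in DG Sal and 24.4 to 98.1 CPM in DG METH. DG METH 3 was within the Sal range of the sum, but not of Il16, at 50.1 CPM against at most 26.9 CPM in DG Sal. DG METH 3 was also the lowest DG METH library for 10 of the 12 positive genes of lowest p, while lying above all 4 DG Sal libraries for 11 of the 12. Camk2b was the exception, at 927 CPM against 986 CPM in DG Sal 1. The part of granule neuron content in the DG effects was not tested.

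The METH effects of the 12 positive and 12 negative genes were also taken in CA, the neighbouring hippocampal field, and in NAc. In a fit of all 32 libraries, the METH effect in CA was below 0 for 12 of the 12 positive genes, between -0.76 and -0.16 with a median of -0.41, and in NAc it was below 0 for 10 of 12. For Arhgef25 it was -0.76 ± 0.22 in CA and -0.03 ± 0.22 in NAc. Of the 12 negative genes, 8 had an effect above 0 in CA and 10 in NAc, with medians of 0.09 and 0.17. CA and DG carry the same library numbers, under opposite labels for 4 of the 8 as given above, and the part of this in the signs was not tested. The share of each sign over all genes was not counted for CA and NAc, so nothing is read from these counts.

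Genes of adult neurogenesis, the property the 2 regions share, were not detectably different in their response. Of 18 stem cell and niche genes, 0 had an unadjusted p under 0.05, and their median difference was 0.04, beside -0.03 over all genes. Without DG Sal 3, the median was 0.16 and 2 of the 18 were negative, beside 4.39% of all genes. Nes, the intermediate filament of neural progenitors, differed by 0.00 ± 0.39, with 1.75 to 2.58 CPM in DG Sal, 2.05 to 3.38 in DG METH, 2.01 to 3.61 in SVZ Sal and 1.73 to 4.17 in SVZ METH. Of 21 proliferation genes, 0 had an unadjusted p under 0.05, with a median of -0.23. That median was -0.0010 without DG Sal 3, -0.05 without SVZ Sal 1 and -0.74 without DG replicates 1 and 2. Mki67, a marker of cycling cells, had 9.29, 7.02, 12.4 and 10.5 CPM in DG Sal, 21.8, 17.2, 8.44 and 16.5 in DG METH, 3.40, 30.8, 13 and 29.1 in SVZ Sal, and 66.7, 4.05, 10.1 and 3.71 in SVZ METH. The SVZ groups overlapped over most of their range, and the difference was 0.55 ± 1.15. Top2a, the topoisomerase of dividing cells, differed by -0.42 ± 1.67, and Eomes, a marker of intermediate progenitors, had too few reads to be tested.

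Of 15 neuroblast genes, 1 had a negative difference at an unadjusted p under 0.05, and the median was -0.35 (0.22 without DG Sal 3). The gene was Stmn1, a microtubule-destabilising protein of growing neurons, with 240.2, 349, 160.2 and 309.9 CPM in DG Sal and 110.2, 181, 174 and 85 CPM in DG METH. SVZ levels were 391, 198, 177 and 129 CPM under Sal and 306, 382, 244 and 379 CPM under METH. Both pairs of groups overlapped, and the difference was -1.5 ± 0.49 (adjusted p = 0.486). Sox11 differed by -0.69 ± 0.77 and Dlx2 by -1.13 ± 1.01. Among 33 signalling genes of the niche, 2 had a positive and 1 a negative difference at an unadjusted p under 0.05, with a median of -0.06. Gli1, the transcription factor read as an output of Sonic hedgehog signalling, had 4.77, 4.26, 12.6 and 4.60 CPM in DG Sal and 1.19, 0.880, 2.77 and 0.447 CPM in DG METH. It was at 3.92 to 10.4 CPM in the 8 SVZ libraries, and its difference was -2.40 ± 0.69 (adjusted p = 0.453). The 2 positive genes were Frzb, a secreted Wnt inhibitor (1.88 ± 0.82), and the Notch ligand Dll1 (0.64 ± 0.28). Bdnf, the neurotrophin, differed by -0.09 ± 1.07.

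Neuron type markers had wide spreads. Of 13 dentate granule genes, 1 was positive at an unadjusted p under 0.05, and the median was 0.77. This was Il16, with 26.9, 5.86, 4.01 and 4.52 CPM in DG Sal, 82.2, 30.9, 50.1 and 72.8 CPM in DG METH, and 3.23 to 12.4 CPM in SVZ (difference 2.87 ± 0.85, adjusted p = 0.461). The granule median was 0.48 without DG replicates 1 and 2, and 3 genes were positive without SVZ Sal 1, beside 6.5% of all genes. Prox1, the transcription factor of granule cell identity, was present in both regions and differed by 0.73 ± 0.99. Of 11 CA pyramidal, 24 striatal, 10 thalamic and 13 interneuron genes, none had an unadjusted p under 0.05. Their medians were 0.52, -0.57, -0.25 and -0.41. The striatal median was 1.16 without DG Sal 3 and -0.18 without SVZ Sal 1. The thalamic one was 0.32 without DG Sal 3 and -2.09 without SVZ Sal 1, with 5 of 10 genes then negative at an unadjusted p under 0.05. The interneuron median was -0.12 without DG Sal 3, and without SVZ Sal 1 it was -0.25 with 4 of 13 genes negative, beside 8.22% of all genes. Ppp1r1b, the dopamine- and cAMP-regulated phosphoprotein of striatal neurons, differed by -0.01 ± 1.26.

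The receptor list held genes on both sides. Of 31 glutamate and GABA-A receptor genes, 3 were positive and 3 negative at an unadjusted p under 0.05, beside 3.74% and 3.91% of all genes. Their median was 0.30. Without SVZ Sal 1, 9 were positive and 5 negative, beside 6.5% and 8.22% of all genes. The positive ones with all libraries were subunits of the NMDA receptor, Grin2a (1.45 ± 0.55), Grin2b (0.74 ± 0.33) and the obligatory Grin1 (0.55 ± 0.21). For Grin1, the DG groups overlapped, with 346 to 573 CPM under Sal and 449 to 616 under METH, and the SVZ groups did not, with 451 to 538.6 CPM under Sal and 359.6 to 393 under METH. The negative ones were the NMDA subunit Grin3a (-1.44 ± 0.41), the kainate receptor Grik3 (-1.01 ± 0.39) and the metabotropic receptor Grm8 (-1.88 ± 0.52). Grm8 had 29.4, 19.5, 23.5 and 32.2 CPM in DG Sal and 8.14, 18, 8.30 and 3.45 CPM in DG METH, which did not overlap, and 12.1 to 26.3 CPM in SVZ. Of 14 presynaptic genes, 1 was positive, Cplx2, a regulator of vesicle fusion (1.73 ± 0.77), with a median of 0.04.

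**Figure D4:**
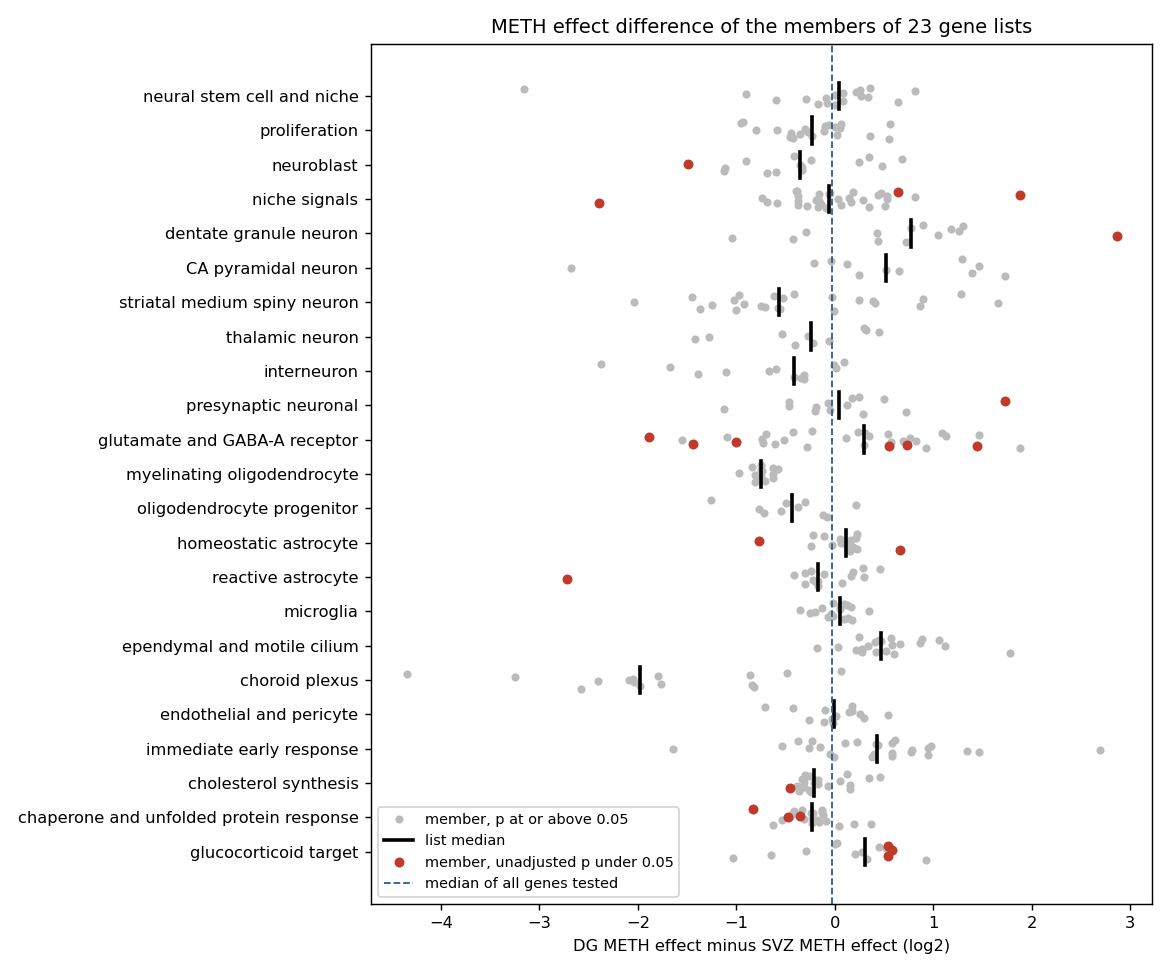
Each point is the METH effect difference (log2, DG minus SVZ) of 1 member of the 23 gene lists, red where its unadjusted p was under 0.05, with the list median as a black bar and the median of all tested genes as a dashed line. Most members were grey, and no list had more than 3 red members in 1 direction.

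Glial, vascular and ventricular lists held few members past the unadjusted threshold. Of 15 myelin genes, 0 passed and all 15 differences were below 0, with a median of -0.75. Mbp, the myelin basic protein, had 1614 to 6285 CPM in DG Sal, 1366 to 7382 in DG METH, 1890.0 to 9696 in SVZ Sal and 4378 to 14372 in SVZ METH. The 3 libraries high in thalamic genes were the 3 highest in Mbp, and without them the myelin median was -0.45. It was -1.24 without SVZ Sal 1 alone. Of 10 oligodendrocyte progenitor genes, 0 passed, with a median of -0.43. In homeostatic astrocyte genes, 1 of 15 was positive, the glutamate transporter Slc1a2 (0.66 ± 0.27), and 1 negative, the sodium pump subunit Atp1b2 (-0.77 ± 0.31), with a median of 0.11. Of 16 reactive astrocyte genes, 1 was negative, the small heat shock protein Hspb1 (-2.72 ± 1.23), which was at 50.1 CPM in SVZ METH 3 and at most 5.64 CPM in the other 7 SVZ libraries. In 17 microglial genes, 0 passed, with a median of 0.06, and Aif1 differed by 0.17 ± 0.31. Of 14 endothelial and pericyte genes, 0 passed, with a median of -0.01, and Cldn5 was listed at 0 in the 16 libraries.

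Of 21 ependymal and 15 choroid plexus genes, 0 passed, with medians of 0.47 and -1.98. Without the 3 libraries highest in choroid plexus genes, the choroid plexus median was -0.51 and the ependymal one -0.46, and without DG Sal 3 the ependymal one was 1.26. Ttr, the thyroid hormone carrier of the choroid plexus, was at 7543 CPM in SVZ METH 3 and at 0.271 CPM in SVZ METH 1, and its difference was -2.57 ± 3.74.

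No immediate early gene had a detectable difference between the regions. Of 26 immediate early genes, which neurons induce upon activity, 0 had an unadjusted p under 0.05 for the difference, with a median of 0.43. The median was 1.03, with 2 genes positive, without DG replicates 1 and 2, beside 3.48% of all genes. Without SVZ Sal 1, 4 genes were positive, beside 6.5% of all genes. In the separate terms, 4 in DG and 6 in SVZ passed that threshold, beside the 11.9% and 3.16% of all genes, and the effect of each of the 6 was negative. Fos had 18.2, 9.5, 4.46 and 14.9 CPM in DG Sal, 2.5, 5.20, 8.96 and 6.51 in DG METH, 13.6, 6.26, 17.6 and 26.8 in SVZ Sal, and 4.87, 5.94, 7.63 and 6.0 in SVZ METH. The effects had the same sign, -1.01 ± 0.47 and -1.39 ± 0.47, and differed by 0.38 ± 0.66. Arc, an activity-induced synaptic protein, had 49.1, 53.5, 126 and 110.0 CPM in SVZ Sal and 37.5, 31, 42.6 and 41.7 CPM in SVZ METH, without overlap. In DG it overlapped, with 35.6 to 171 CPM under Sal and 59.5 to 170.3 under METH, and the difference was 1.35 ± 0.64 (adjusted p = 0.666). Egr2 differed by 0.58 ± 1.11.

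Cholesterol synthesis genes were counted in each region and for the difference, and the 2 regions were not shown to differ. Of 21, 10 had an unadjusted p under 0.05 in SVZ, beside 3.16% of all genes and each with a positive effect, and 2 in DG, beside 11.9%. The list medians were 0.30 in SVZ and 0.15 in DG, beside 0.01 and -0.02 over all genes. For the difference, 1 of 21 passed that threshold, Idi1, an isomerase of the isoprenoid steps. Idi1 had 19.8, 17.6, 14.9 and 17.6 CPM in SVZ Sal and 26.3, 26.5, 23.8 and 30.2 CPM in SVZ METH, which did not overlap. In DG it overlapped, with 17.8 to 26.4 CPM under Sal and 21.9 to 31.7 CPM under METH. The difference was -0.45 ± 0.21 (adjusted p = 0.630), the list median was -0.21 (-0.07 with 0 negative genes without DG replicates 1 and 2), and Hmgcs1, the enzyme that begins the pathway, differed by -0.24 ± 0.23. Without DG Sal 3, the list median was -0.26 with 2 genes negative, beside 4.39% of all genes. Without SVZ Sal 1, it was -0.29 with 3 genes negative, beside 8.22% of all genes. SVZ METH 2 and 4 were also the libraries highest in myelin genes.

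In the chaperone and unfolded protein list, 3 of 23 genes were negative and 0 positive at an unadjusted p under 0.05. Over all genes, these shares were 3.91% and 3.74%. The list median was -0.24. The negative genes were Chac1 (-0.83 ± 0.31), a glutathione-degrading enzyme induced by the unfolded protein response, the disulfide isomerase Pdia4 (-0.48 ± 0.19) and the transcription factor Xbp1 (-0.35 ± 0.16). Chac1 had 11, 11.2, 8.34 and 8.96 CPM in DG Sal and 6.32, 6.01, 6.68 and 6.13 CPM in DG METH, without overlap, and 4.87 to 11.8 CPM in SVZ. Hspa5, the chaperone BiP, differed by -0.31 ± 0.27. Without DG replicates 1 and 2, 0 of the list were negative and 1 was positive, beside 3.6% and 3.48% of all genes. Without SVZ Sal 1 alone, 7 were negative, beside 8.22% of all genes. In the glucocorticoid target list, 3 of 14 were positive and 0 negative, beside 3.74% and 3.91% of all genes, with a median of 0.30. The positive genes were Errfi1 (0.58 ± 0.19), Nfkbia (0.54 ± 0.22) and Klf9 (0.54 ± 0.21). Fkbp5, a co-chaperone of the glucocorticoid receptor, differed by 0.93 ± 0.51. Without SVZ Sal 1, 5 of this list were positive, beside 6.5% of all genes. Without DG Sal 3, the median was 0.15, with 2 positive and 1 negative, beside 4.19% and 4.39% of all genes.

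**Figure D5:**
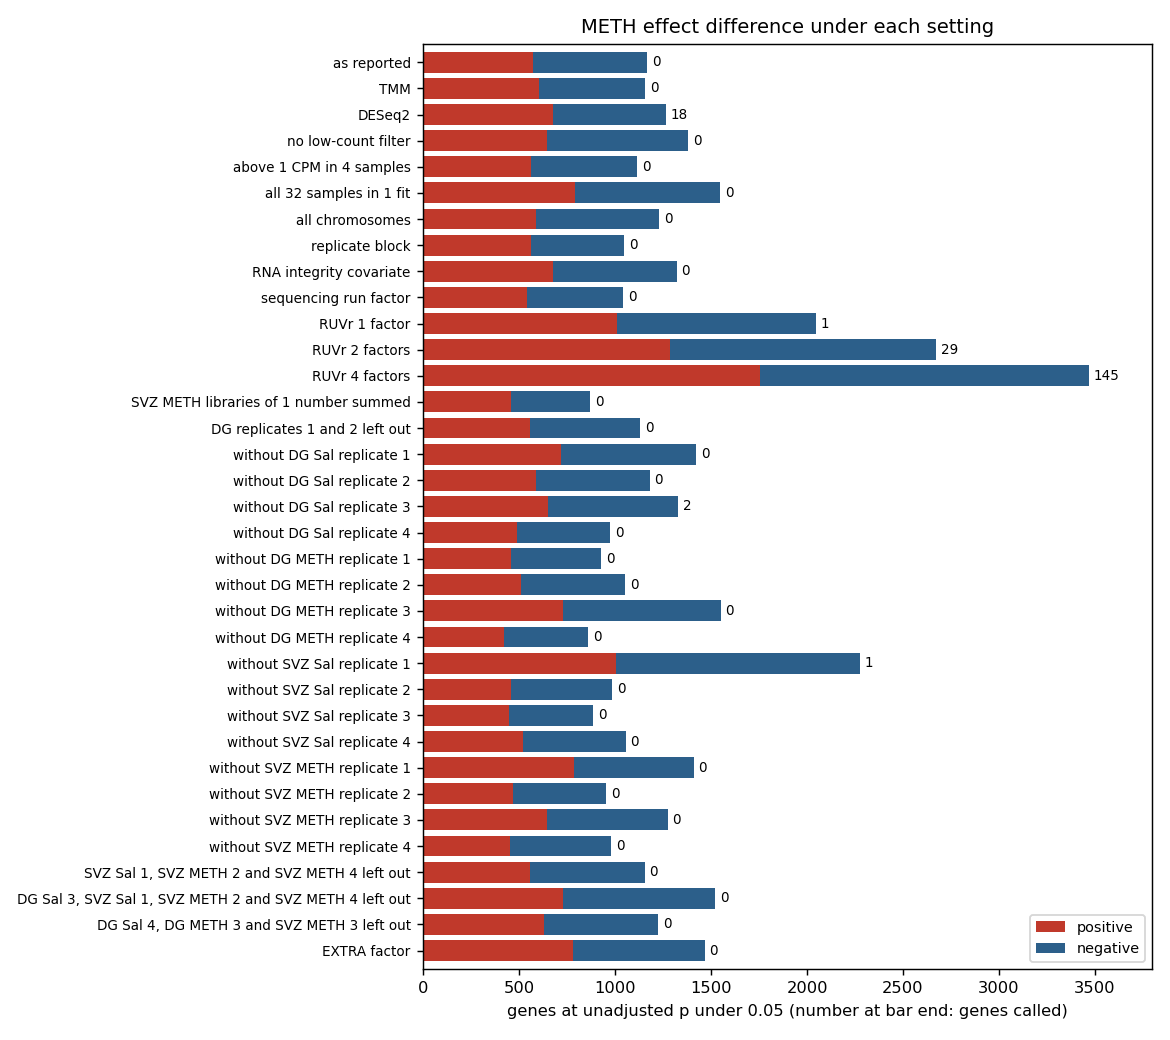
Bars count the genes at an unadjusted p under 0.05 for the METH effect difference under each setting, split into positive (red) and negative (blue), and the number at the bar end is the count of genes called. The reported design had 1168 such genes and 0 called, and the larger counts came with RUVr factors and without SVZ Sal 1.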

How the data were processed

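RNA was depleted of ribosomal RNA and made into libraries with a TECAN Universal Plus mRNA-seq kit. Per the labels and file headers, the authors trimmed reads with cutadapt 2.7, checked them with FastQC 0.11.4, aligned them to rn6 with STAR 2.5.2b and counted them per gene with featureCounts 1.6.3 on Ensembl release 95. The values used here are those deposited counts, not normalized. The members, gene lists and named genes were chosen with earlier results of these data known.

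The 16 DG and SVZ libraries were fitted in 1 model of 4 groups with edgeR 4.0.16 in R 4.3.3 (upper-quartile scaling, filterByExpr, glmQLFit, glmQLFTest) and tested two-sided for (DG METH - DG Sal) - (SVZ METH - SVZ Sal), with Benjamini-Hochberg adjustment over all tested autosomal genes. SE is the log2 effect divided by the square root of F. CPM uses the scaled library totals. Named genes were the 12 of lowest p in each direction, the member of lowest p in each list, and set exemplars. The 12 had a symbol not starting LOC, AABR, RGD or AC and a mean of at least 1 CPM in 1 group. Of the exemplars, Foxj1 and Prkcd are not used here. Some list members of lowest p are not reported here, all from lists with no member past the unadjusted threshold. The values of 2 of the 24 genes of lowest p are not reported here. Other members past the unadjusted threshold were named after their values were seen. RUVr was re-coded from deviance residuals, and 1, 2 and 4 factors were tried because the number the study used is not given in the sources used here. DESeq2 1.42.0, other scalings, filters, covariates and left-out libraries were alternatives, 4 of them chosen after seeing the data. Scripts were tested on simulated counts. Libraries of 1 group varied beyond counting error, with a common coefficient of variation of 0.359, so total counts alone do not set the precision.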

Additional observations from a re-analysis of the deposited data

Results flagged for a closer look

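In groups of 4 libraries, a library was marked where its gap to the nearest other exceeded the share of the group's range set by Dixon's 95% critical value, which chance reaches in about 1 of 20 groups. Of 96 groups for the 24 genes of lowest p, 1 was marked: Arhgef25 at 51.8 CPM in DG Sal 4, the low end of a narrow group. Of 28 groups for 7 marker lists, 8 were marked. The dentate granule list was high in DG Sal 1 (1054 CPM) and low in SVZ Sal 2 (441 CPM). The striatal list was high in DG Sal 3 (4682 CPM) and the thalamic list in SVZ Sal 1 (2869.8 CPM). The ependymal list was high in DG METH 3 (658 CPM). The choroid plexus list was high in DG Sal 4 (2804 CPM), DG METH 3 (7186.5 CPM) and SVZ METH 3 (9254 CPM).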

How the results depend on the processing

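For the METH effect difference, 0 genes were called under TMM scaling, either low-count filter, a fit of 32 libraries or all chromosomes. The same held with an RNA integrity or run covariate, summed SVZ METH libraries and the left-out sets, while DESeq2 called 18. The run covariate marked only the 1 run with both treatments in DG. It could not adjust for the DG runs that held a single treatment. RUVr with 1, 2 and 4 factors called 1, 29 and 145 genes, and the number below an unadjusted p of 0.05 was 2047, 2672 and 3470. In DG alone, DESeq2 called 108 genes, all chromosomes 4, the run factor 2, RUVr 10, 122 and 246, and an FDR under 0.05 without fold threshold 9, and in SVZ alone RUVr with 4 factors called 1. Leaving out 1 library at a time gave 0 to 2 calls for the difference, 860 to 2276 genes at an unadjusted p under 0.05, and 0 to 9 calls in DG. The 9 came without DG Sal 1, and the 2276 without SVZ Sal 1. The cause was not tested. The striatal list median was -0.57 with all libraries and -0.18 without SVZ Sal 1. It ran from -0.87 without SVZ Sal 1, SVZ METH 2 and SVZ METH 4 to 1.16 without DG Sal 3. The thalamic one ran from -2.09 without SVZ Sal 1 to 0.32 without DG Sal 3.

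With the replicate number as a block, 0 genes were called and 1047 had an unadjusted p under 0.05. Same-numbered libraries did not deviate together in every pair (correlations of -0.78 to 0.39 over 24 pairs, 11 of them above 0.1). Differently numbered libraries were not compared, so whether same-numbered ones share more than the number was not tested. The 24 genes of lowest p kept their sign and an unadjusted p under 0.05 in each alternative run, which their choice on these libraries in part fixes. Of 2278 values of named genes under alternatives, 69 changed sign, each for a gene with an unadjusted p of 0.05 or more.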

Other observations

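Some genes of known interest had effects of the same sign in both regions. Gfap, the intermediate filament of astrocytes, had 467, 594, 227 and 524 CPM in DG Sal and 572, 709.5, 888 and 841 CPM in DG METH. SVZ levels were 679.8, 255, 467 and 412 CPM under Sal and 530.1, 713, 1362 and 781 CPM under METH. Both pairs of groups overlapped, with effects of 0.73 ± 0.35 in DG and 0.90 ± 0.35 in SVZ and a difference of -0.17 ± 0.49. Grik4, a kainate receptor subunit, had 44.1, 29.5, 33.2 and 33.8 CPM in DG Sal and 111, 52.9, 111 and 89.4 CPM in DG METH, without overlap. Its effects were 1.37 ± 0.28 in DG and 0.72 ± 0.28 in SVZ, with a difference of 0.66 ± 0.39. Itgam, an integrin of microglia, was at 11.6 to 13.5 CPM in DG Sal and 16.7 to 23.5 CPM in DG METH, without overlap, and its effects were 0.58 ± 0.13 in DG and 0.24 ± 0.13 in SVZ, with a difference of 0.35 ± 0.19. None of these was called in either region.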
